A study of Mus musculus with 9 samples.

Results

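The genes of glycolysis, of the pentose phosphate pathway and of the entry of pyruvate into mitochondria were followed in mouse macrophages that carried either of 2 forms of the RNA-binding protein tristetraprolin (TTP, gene Zfp36) or neither. The set was a fixed list of 35 genes named by function, from the hexokinases to pyruvate kinase, lactate dehydrogenase, the pentose phosphate enzymes, the pyruvate dehydrogenase complex with its regulators, and the phosphoglucomutases. All 35 were found by symbol among the 25494 genes of the per-library table, and all 35 were listed in each of the 3 comparison tables. The rule that picks them uses function alone and no measured value.

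Total RNA, freed of ribosomal RNA, was sequenced from immortalized bone marrow-derived macrophages of TTP-deficient mice. Human c-Myc and an activated human Ras had been used to immortalize the cells, which were sorted for the macrophage surface proteins CD11b and F4/80, and all groups shared this background. The cells then received a doxycycline-inducible retroviral vector for GFP (the GFP group), for GFP fused to wild-type TTP (TTP), or for GFP fused to a TTP with alanine at the serines that the kinase MK2 phosphorylates (TTP-AA). Every library came from cells given doxycycline (1 µg/ml) for 6 h and lipopolysaccharide (LPS, 1 µg/ml) for 1 h, with 3 libraries in each of the 3 groups. There were no cells without LPS, so the groups compare TTP forms and not resting with activated cells. The sources used here do not give the number of lines or clones behind a group, and a difference between lines and an effect of the transgene cannot be told apart.

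Glycolysis splits glucose into pyruvate in the cytosol and yields ATP without oxygen, and lactate dehydrogenase then turns pyruvate into lactate. The pentose phosphate pathway branches off at glucose 6-phosphate, its oxidative arm making NADPH and its non-oxidative arm shuffling sugar phosphates back to glycolysis. The pyruvate dehydrogenase complex commits pyruvate to acetyl-CoA inside mitochondria. Macrophages exposed to LPS are known for a shift towards glycolysis and lactate. TTP binds AU-rich sequences in 3' untranslated regions (3'UTRs) and recruits enzymes that shorten the poly(A) tail, and its phosphorylation by MK2 weakens that activity.

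The library values on deposit proved to be means fitted by the authors' model and not measured counts. Each was the product of a library factor, a term for the replicate number and a term for the group, with a largest residual of 9.5e-15 on the log2 scale. They therefore held no scatter between replicates, and no test and no p-value could be had from them. Below, a scaled value is such a fitted count divided by a scaling factor of its library, and a difference is that of the group means of log2 scaled values. The standard error given with a difference is that of counting alone. The spread of a gene over the 3 libraries of a group is its fitted replicate-number term, which is nearly the same in every group. Groups are called apart where all 3 libraries of one lie above all 3 of the other, and otherwise said to overlap. Since the replicate-number term is shared by all groups, an overlap says only that a difference is smaller than that term, and the error between same-numbered libraries cannot be had from these values. A size of at least 0.3 (1.23-fold) is counted as higher or lower. Fitted totals ran from 21482954 for TTP replicate 1 to 102613526 for TTP-AA replicate 3. At that depth the counting error of a difference was between 0.003 and 0.056 for 34 of the genes and reached 0.28 for Ldhb.

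Of the 35 genes of central carbon metabolism, 26 were under 0.3 in all 3 comparisons. The share of all genes that were so was not worked out. Between TTP and GFP the median difference was 0.12 against 0.01 over 13029 genes with a mean scaled value of at least 10, and 27 of the 35 lay above 0, as did 51.7% of all genes. Only 1 gene, Dld, was higher in TTP by at least 0.3, where 5.74% of all genes were, and 0 were lower, where 8.83% of all genes were. Without TTP replicate 3 the Dld difference was 0.26, where leaving out 1 library unbalances the replicate-number term. Groups were apart with TTP higher for 7 genes (9.92% of all genes), namely Gpi1, Pgam1, G6pdx, Pdha1, Dlat, Dld and Pdk3, and with TTP lower for 0 (9.64% of all genes).

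Between TTP-AA and GFP the median was -0.01, the same as over all genes. At least 0.3 higher in TTP-AA were 3 genes, Ldhb, Taldo1 and Pgam1 (11.4% of all genes), and at least 0.3 lower were 2, Hk2 and Pfkm (12.0% of all genes). Groups were apart with TTP-AA higher for 4 genes (11.5% of all genes), these 3 and Hk1, and with TTP-AA lower for 5 (13.6% of all genes), Hk2, Pfkm, Pdhb, Dlat and Pdk1. The shares of the set were thus near or below those of the transcriptome.

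TTP-AA was set against TTP directly, a contrast in which the exchanged serines and a difference between lines cannot be told apart. The median was -0.08 against -0.02 over all genes, and 23 genes lay below 0, as did 53.6% of all genes. Ldhb alone was higher by at least 0.3 (15.8% of all genes), while 6 were lower (15.5% of all genes): Hk2, Pfkm, Eno1, Pdhb, Dlat and Dld. Groups were apart with TTP-AA higher for 1 gene (14.0% of all genes) and with TTP-AA lower for 9 (17.3% of all genes), which were Hk2, Pfkm, G6pdx, the 4 genes of the pyruvate dehydrogenase complex, Pdk1 and Pdk3. By sign alone, 19 members lay above 0 in TTP minus GFP and below 0 in TTP-AA minus TTP, where 37.9% of all genes did. These comparisons share the TTP libraries, so opposite signs are not independent of one another. Of the members 21 were apart in none of the comparisons, a count whose share over all genes was not worked out.

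**Figure D1:**
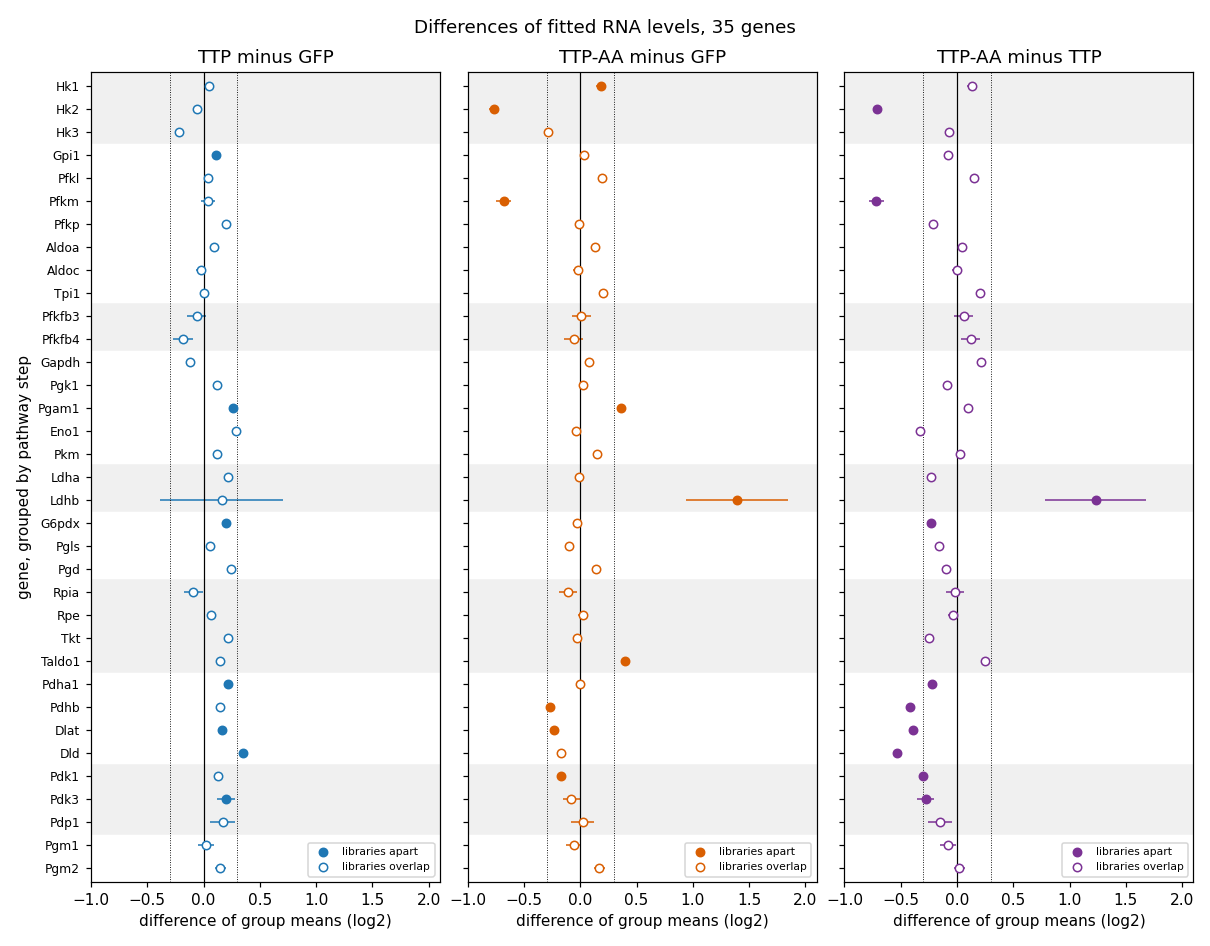
Difference of group means (log2, x axis) for each of the 35 genes (y axis, shaded by pathway step) in the 3 comparisons, with bars for the 95% counting interval. Filled points mark groups that are apart over the libraries, and dotted lines mark 0.3 in either direction. Most points lie between the dotted lines, with Hk2 and Pfkm to the left and Ldhb to the right in both comparisons with TTP-AA.

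Hexokinases trap glucose as glucose 6-phosphate. Hk2, the inducible hexokinase that sits on the mitochondrial surface, had scaled values of 4958, 3948 and 4961 in GFP replicates 1 to 3, of 4764, 3782 and 4767 in TTP and of 2909, 2311 and 2914 in TTP-AA. All TTP-AA libraries lay under all others, while GFP and TTP overlapped. Hk2 was lower in TTP-AA by 0.77 than in GFP (counting SE 0.021) and by 0.71 than in TTP (0.021), folds of 0.59 and 0.61, with an SD over the GFP libraries of 0.19. The gene lies on chromosome 6 from 82725025 to 82774454, minus strand (GRCm38), and no annotated exon of another gene overlaps it.

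Hk3, the myeloid hexokinase, led the family, at 7033, 8821 and 7613 in GFP, 6042, 7554 and 6540 in TTP and 5763, 7208 and 6244 in TTP-AA. The groups overlapped, with differences of -0.22 between TTP and GFP and -0.29 between TTP-AA and GFP (counting SE 0.015 and 0.014). Hk1, the widely expressed form, went the other way, with a difference of 0.18 between TTP-AA and GFP. Its libraries there were only just apart, the highest of GFP being 3505 and the lowest of TTP-AA 3520. Between TTP-AA and TTP it had 0.13, where genes of chromosome 10, on which it lies, had a median of 0.14. That median was 0.01 in TTP-AA minus GFP. An exon of Hk1os overlaps Hk1 on the other strand.

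Hk2 and Hk1 thus parted within the family. Per base of the transcript with the longest coding sequence, Hk2 made up 20.4% ± 3.14 (SD, n = 3 libraries) of hexokinase RNA in GFP, 21.4% ± 3.16 in TTP and 14.3% ± 2.23 in TTP-AA. The share of Hk1 was 20.8% ± 1.91, 23.5% ± 2.00 and 28.1% ± 2.60 in the same order, and that of Hk3 stayed between 55.1% and 58.8%. The highest library of TTP-AA for Hk2 (15.8%) was below the lowest of GFP (16.8%). With all annotated exons as the length, Hk2 held more than Hk1 in GFP (23.7% against 11.8%) and about as much in TTP-AA (17.3% ± 2.89 against 16.7% ± 1.76), so the rank of these 2 enzymes rests on the transcript chosen. The Hk2 share was lower in TTP-AA with either length, at 17.3% against 25.1% in TTP with all exons.

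Phosphofructokinase commits sugar to glycolysis, and its tetramers mix liver, muscle and platelet type subunits. Pfkm, the muscle type, had scaled values of 1516, 1878 and 1622 in GFP, 1559, 1924 and 1667 in TTP and 948, 1171 and 1015 in TTP-AA. The TTP-AA libraries again lay under all others. The difference was -0.68 (counting SE 0.033) from GFP and -0.72 (0.034) from TTP, against 0.04 (0.031) between TTP and GFP. An exon of Gm26513 overlaps Pfkm on the same strand and an exon of Senp1 on the other strand. The sources used here do not state whether counting used strand. Of the other subunits, Pfkl, the liver type, had differences of 0.19 from GFP and 0.15 from TTP in TTP-AA, and Pfkp, the platelet type, of -0.01 and -0.21. Their libraries overlapped between groups. Pfkl lies on chromosome 10, whose genes had medians of 0.01 in TTP-AA minus GFP and 0.14 in TTP-AA minus TTP. Its differences beyond those medians were 0.18 and 0.02.

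The muscle subunit accordingly held 15.2% ± 1.88 of phosphofructokinase RNA per length in GFP, 14.6% ± 1.84 in TTP and 9.39% ± 1.21 in TTP-AA. Pfkl held 49.1% ± 1.33, 47.2% ± 1.41 and 55.6% ± 1.63, its lowest TTP-AA library (53.9%) lying above its highest GFP library (50.5%). The sum of the 3 subunits in RPKM (reads per kb scaled to library total, from the fitted reads), at 106 ± 11.2 in GFP, 113 ± 11.8 in TTP and 107 ± 11.7 in TTP-AA, overlapped between groups. With all exons the Pfkm share was also lower in TTP-AA, at 16.2% against 24.7% in TTP.

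**Figure D2:**
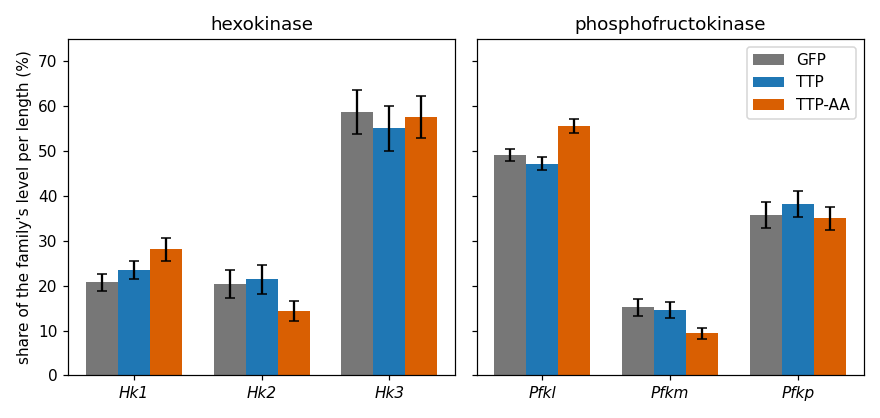
Share of each isoenzyme in the summed level per transcript length of its family (y axis, percent), as mean and SD over 3 libraries per group, for hexokinases (left) and phosphofructokinases (right). The TTP-AA bars of Hk2 (14.3%) and Pfkm (9.39%) are the lowest of their trios, and those of Hk1 (28.1%) and Pfkl (55.6%) the highest.

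Both genes carry in the 3'UTR the 7-base AU-rich element TATTTAT, a core of known TTP sites. The stretches below are shown because Hk2 and Pfkm had the most negative differences of the set. They run 5' to 3' on the transcript strand, from the GRCm38 genome with GENCODE M21 transcripts, with the element in capitals. The first Hk2 site lies at chr6:82726566-82726588 and the second at chr6:82725904-82725926, both on the minus strand, and the Pfkm site at chr15:98132342-98132364 on the plus strand.
Hk2 first site: aagtaatgTATTTATatgttcct
Hk2 second site: atacgagtTATTTATtccagact
Pfkm site: ataagcttTATTTATttctttgt
The elements begin 730 and 1392 bases after the stop codon in the 2285-base 3'UTR of Hk2 and 291 bases after it in the 382-base 3'UTR of Pfkm.

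The remaining upper steps were even. Gpi1 interconverts glucose 6-phosphate and fructose 6-phosphate, and its TTP and GFP libraries were apart at a difference of only 0.11, as its spread over libraries was small (SD 0.05). Aldoa, the main aldolase, which cleaves fructose bisphosphate, was at 37774, 45512 and 41045 in GFP, 40319, 48427 and 43812 in TTP and 41359, 49698 and 44986 in TTP-AA, with overlap in all comparisons. It accounted for 96.1% to 96.4% of aldolase RNA per length in the group means, the rest being Aldoc, the brain type. Tpi1, which interconverts the resulting triose phosphates, had differences of 0.00, 0.20 and 0.20 in TTP minus GFP, TTP-AA minus GFP and TTP-AA minus TTP, an order kept in what follows.

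The bifunctional enzymes Pfkfb3 and Pfkfb4 set fructose 2,6-bisphosphate, a strong activator of phosphofructokinase. Pfkfb3 was at 881, 717 and 947 in GFP, 848, 688 and 911 in TTP and 885, 718 and 951 in TTP-AA. Its differences of -0.06, 0.01 and 0.06 had 95% counting intervals that held 0 (SE 0.044, 0.042 and 0.043). Pfkfb4 had differences of -0.18, -0.06 and 0.12, with groups overlapping. Which of the pair was more abundant depended on length, Pfkfb3 holding 61.2% in GFP by transcript and 39.5% by all exons.

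Lower glycolysis harvests the energy. Gapdh, which oxidizes the triose, had differences of -0.12, 0.08 and 0.21, and Pgk1, which makes the first ATP, of 0.12, 0.02 and -0.09. In Gapdh 90.4% and in Pgk1 68.0% of 50-base windows, the read length, also occur in other genes or pseudogenes, so the values of both are uncertain where the authors placed reads more than once.

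Pgam1, which moves the phosphate of phosphoglycerate, was at 4888, 5285 and 4717 in GFP, 5842, 6297 and 5637 in TTP and 6279, 6772 and 6066 in TTP-AA. Every library of either TTP form lay above every GFP library. The differences from GFP were 0.26 (counting SE 0.017) in TTP and 0.36 (0.016) in TTP-AA. Genes of chromosome 19, on which Pgam1 lies (41911923 to 41918660, plus strand), had medians of 0.19 and 0.09 in these comparisons, and the differences beyond those medians were 0.06 in TTP and 0.27 in TTP-AA. A further 41.5% of its 50-base windows are shared with a pseudogene. The part of either in the result was not tested.

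Eno1, which makes phosphoenolpyruvate, was at 18752, 19868 and 25182 in GFP, 22919, 24208 and 30779 in TTP and 18203, 19234 and 24468 in TTP-AA. TTP stood 0.29 above GFP and TTP-AA 0.33 below TTP (counting SE 0.008 for each), but replicate 3 was the highest of every group and the libraries overlapped. The latter difference was -0.20 without TTP replicate 3, -0.25 without TTP-AA replicate 1 and -0.29 without TTP-AA replicate 2, under the limit of 0.3. Leaving out 1 library unbalances the replicate-number term. With replicate 3 left out of every group the difference stayed at -0.33, as it must in fitted values. By these values Pkm, pyruvate kinase, was the most abundant transcript of the set. It was at 131986, 168730 and 155676 in GFP, 143582, 182985 and 169360 in TTP and 146999, 187420 and 173556 in TTP-AA. Its differences of 0.12, 0.15 and 0.03 (counting SE 0.003 for each) were smaller than its replicate-number term (SD 0.18 over GFP libraries), so groups overlapped. Each TTP and TTP-AA library of Pkm lay above the same-numbered GFP library, which in fitted values follows from the sign of the group difference. An exon of Gm49759 overlaps Pkm on the same strand.

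Lactate dehydrogenase came almost wholly from Ldha. Its scaled values were 42837, 47978 and 53992 in GFP, 49958, 55780 and 62970 in TTP and 42623, 47610 and 53775 in TTP-AA. TTP stood 0.22 above GFP and TTP-AA 0.23 below TTP, with overlap in both. Ldhb, the heart type subunit that favours pyruvate formation, had the widest difference of the set and the lowest level. It was at 19.3, 23.4 and 14.4 in GFP, 21.5, 26.0 and 16.0 in TTP and 50.5, 61.0 and 37.6 in TTP-AA. All TTP-AA libraries lay above all others, by 1.39 over GFP (counting SE 0.23, 2.61-fold) and 1.23 over TTP (0.23, 2.35-fold). Even so, Ldhb made up only 0.147% ± 0.0434 of lactate dehydrogenase RNA per length in TTP-AA, against 0.0559% ± 0.0165 in GFP. Fitted differences of low genes were small in this table, with median absolute values of 0.060 to 0.078 at means of 1 to 10 against 0.15 to 0.23 at 10 to 100.

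**Figure D3:**
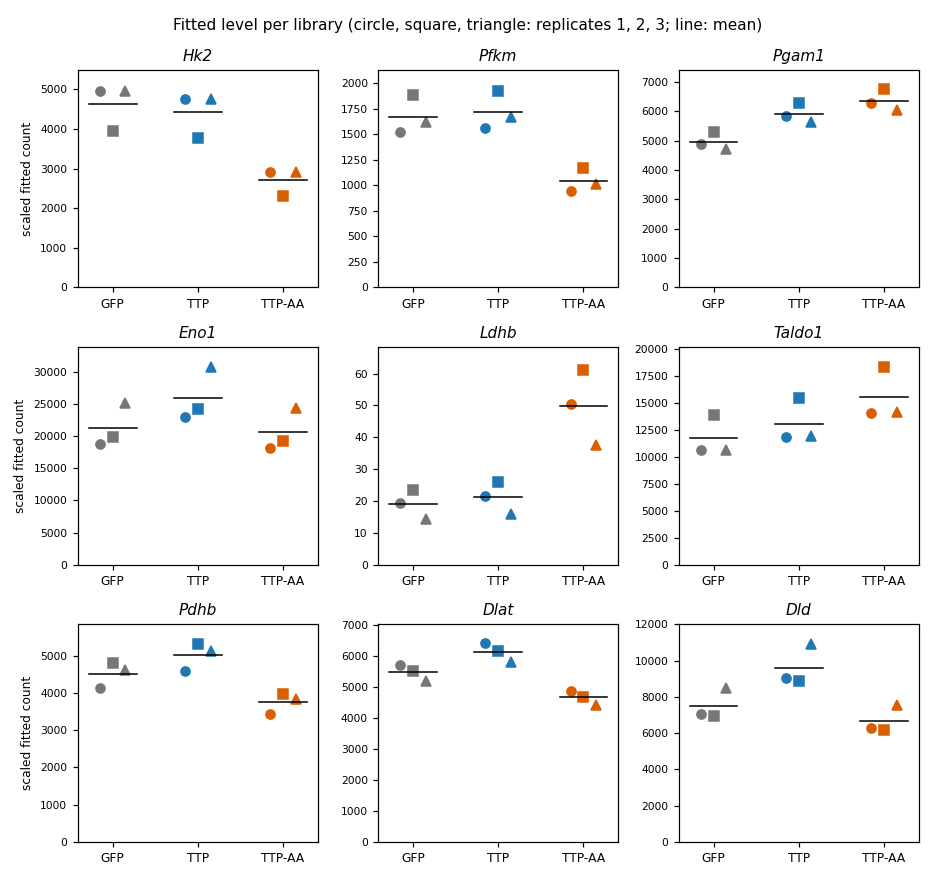
Scaled fitted count (y axis, from 0) per library for the 9 genes with a difference of at least 0.3 in any comparison, by group (x axis), with circle, square and triangle for replicates 1, 2 and 3 and a line for the mean. The same order of replicates recurs in every group, since the values are fitted, and the TTP-AA libraries of Hk2 and Pfkm lie under all others while those of Ldhb lie over them.

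In the oxidative pentose phosphate arm all 3 genes lay above 0 in TTP minus GFP and below 0 in TTP-AA minus TTP. G6pdx, the enzyme of entry and the main source of cytosolic NADPH, had differences of 0.20, -0.03 and -0.23 (counting SE 0.016, 0.015 and 0.015), and its libraries in TTP were apart from both other groups because its spread was small (SD 0.02). Pgls, the lactonase, led the arm by transcript length, though not by all exons, where G6pdx did, and was at 3460, 5376 and 4057 in GFP, 3606, 5586 and 4228 in TTP and 3233, 5009 and 3794 in TTP-AA. Its differences of 0.06, -0.10 and -0.16 were smaller than its replicate-number term (SD 0.32 over GFP libraries), so groups overlapped. An exon of Fam129c overlaps Pgls on the same strand. Pgd, which yields the second NADPH, had 0.24, 0.14 and -0.10, with overlap.

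Of the non-oxidative arm, Taldo1, transaldolase, was at 10637, 13859 and 10646 in GFP, 11848, 15388 and 11859 in TTP and 14067, 18279 and 14094 in TTP-AA. TTP-AA lay above GFP in every library, by 0.40 (counting SE 0.010, 1.32-fold), and overlapped TTP at a difference of 0.25. Without TTP-AA replicate 2 the difference from GFP was 0.28, where leaving out 1 library unbalances the replicate-number term. Tkt, transketolase, which works on the same sugars, had differences of 0.22, -0.03 and -0.25. The isomerase Rpia and the epimerase Rpe lay within 0.11 of 0 in all comparisons. Together the 7 pentose phosphate genes held 0.157% ± 0.00899 of fitted reads in GFP, 0.176% ± 0.0109 in TTP and 0.166% ± 0.00976 in TTP-AA.

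The genes of the pyruvate dehydrogenase complex shared their signs. All 4 were above 0 in TTP minus GFP (median 0.19) and below 0 in TTP-AA minus TTP (median -0.41), where all 4 were apart (17.3% of all genes) and 3 were lower by at least 0.3 (15.5% of all genes). Dld, the shared dihydrolipoyl dehydrogenase that also serves other dehydrogenases, was at 7045, 6963 and 8507 in GFP, 9014, 8882 and 10885 in TTP and 6257, 6168 and 7563 in TTP-AA. TTP libraries lay above those of both other groups, by 0.35 over GFP (counting SE 0.014, 1.28-fold), and TTP-AA stood 0.53 below TTP (0.014).

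Dlat, the acetyltransferase core, was at 5709, 5496 and 5185 in GFP, 6406, 6148 and 5817 in TTP and 4874, 4680 and 4430 in TTP-AA. The 3 groups were apart from one another, in the order TTP, GFP, TTP-AA, with differences of 0.16, -0.23 and -0.39 (counting SE 0.016, 0.017 and 0.017). Pdhb, the beta subunit of the decarboxylase, was at 4126, 4812 and 4622 in GFP, 4578, 5322 and 5129 in TTP and 3422, 3980 and 3838 in TTP-AA. Its TTP-AA libraries were below all others, by 0.27 relative to GFP and 0.42 relative to TTP (counting SE 0.018 and 0.019).

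Pdha1, the alpha subunit and the target of the kinases, was at 9733, 10150 and 10428 in GFP, 11329, 11778 and 12138 in TTP and 9724, 10114 and 10429 in TTP-AA. Here TTP was above both other groups, by 0.22 over each, while GFP and TTP-AA differed by 0.00 (counting SE 0.012). Thus TTP-AA stood below GFP with groups apart for Pdhb and Dlat, while Pdha1 was level. Dld had a difference of -0.17 (counting SE 0.014) with overlap. Genes of chromosome 12, on which Dld lies, had a median of 0.14 there. Beyond the chromosome medians the differences were -0.31 for Dld, -0.24 for Pdhb, -0.24 for Dlat and -0.01 for Pdha1. As a share of all fitted reads the complex held 0.0762% ± 0.00322 in GFP, 0.0890% ± 0.00353 in TTP and 0.0696% ± 0.00296 in TTP-AA. Pdhx, the binding protein that anchors Dld and is not in the list of 35, had differences of 0.24, -0.08 and -0.32, with TTP apart from both other groups.

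The regulators of the complex leaned the same way. Pdk1, a kinase that switches it off, was at 11301, 12414 and 11948 in GFP, 12342, 13515 and 13050 in TTP and 10050, 11010 and 10636 in TTP-AA. The TTP-AA libraries were below all others, with differences of -0.17 from GFP and -0.30 from TTP (counting SE 0.011 for each), the latter just under the 0.3 limit before rounding. The kinase Pdk3 had 0.20, -0.08 and -0.28 and the phosphatase Pdp1, which switches the complex on, 0.17, 0.02 and -0.15. Kinases and phosphatase, of opposed action, thus had the same signs against TTP.

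Phosphoglucomutases link glycolysis to glycogen. The gene listed as Pgm2 (ENSMUSG00000025791, named Pgm1 in GENCODE M21) was at 2120, 2676 and 2211 in GFP, 2355, 2964 and 2456 in TTP and 2384, 3002 and 2489 in TTP-AA, and the one listed as Pgm1 (ENSMUSG00000029171, named Pgm2 there) had differences of 0.02, -0.06 and -0.08. Both overlapped between groups.

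Levels ranged widely between the steps. In RPKM of the fitted reads, by the transcript with the longest coding sequence, Pkm had a mean of 1834 over the 9 libraries, followed by Aldoa at 775, Ldha at 771 and Tpi1 at 597. Aldoa and Ldha did not differ beyond their spread and changed places with all exons as the length. Hk3 (59.6), Pfkl (54.9), Hk2 (19.7) and Pfkm (14.1), of the steps at which flux is controlled, were well below, and the regulators Pfkfb4 (6.29) and Pdp1 (5.19) were the next lowest before Ldhb (0.633). The 35 genes together took 1.33% ± 0.0685 of fitted reads in GFP, 1.44% ± 0.0733 in TTP and 1.40% ± 0.0727 in TTP-AA.

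**Figure D4:**
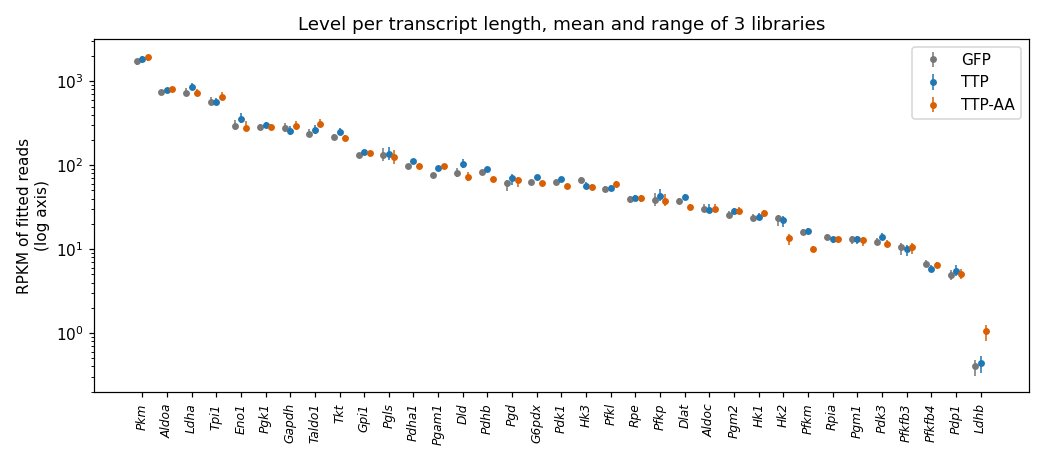
RPKM of the fitted reads (log axis, y) for the 35 genes in order of their mean (x), with mean and range over 3 libraries per group. Levels span from Pkm (mean 1834) to Ldhb (mean 0.633), and Ldhb in TTP-AA stands above its other groups while Hk2 and Pfkm stand below theirs.

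The AU-rich element was looked for in the 3'UTRs of all members. TATTTAT, read on the transcript strand only, was present in 7 of 35, against 27.5% of 11288 genes with a 3'UTR and a mean of at least 10. Its density was 0.351 per kb in members and 0.289 per kb in all genes, and the median 3'UTR was 683 bases in members and 967 in all genes. The carriers were Hk2, Pfkm, Pfkp, Pgk1, Dlat, Pdk1 and Pgm1. The pentamer ATTTA, which TATTTAT contains, was in 19 of 35 (54.3%), against 66.3% of all genes.

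Pfkp, Pgk1 and Pgm1 of the carriers had differences of only -0.01, 0.02 and -0.06 in TTP-AA minus GFP, and their stretches are not shown. Dlat and Pdk1 also carry the element and stood lower in TTP-AA, so one stretch of each is given, a choice made by their differences. The Dlat one lies at chr9:50636372-50636394, minus strand, 39 bases after the stop codon, and the Pdk1 one at chr2:71901444-71901466, plus strand, in a 3'UTR of 3734 bases. Capitals mark the element as above.
Dlat site: tgacattaTATTTATatgttatt
Pdk1 site: gtctgggaTATTTATaacctcct

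All 7 carriers lay below 0 in TTP-AA minus TTP (median -0.30), against 16 of the 28 members without the element (median -0.03). Against GFP, 6 of 7 carriers lay below 0 in TTP-AA (median -0.17), where 13 of 28 others did (median 0.01), but only 1 of 7 did in TTP (median 0.12), where 7 of 28 others did (median 0.13). Over all genes, 57.6% of the 3108 with the element and 53.1% of the 8180 without it lay below 0 in TTP-AA minus TTP, and 63.8% and 48.8% did in TTP-AA minus GFP. In TTP minus GFP the shares over all genes were 55.5% with and 45.0% without the element, in the opposite order to the members. Carriers and others overlapped widely, Dld and Pdhb at -0.53 and -0.42 having no TATTTAT. The sequence match is a description, and binding at these sites was not analysed here.

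**Figure D5:**
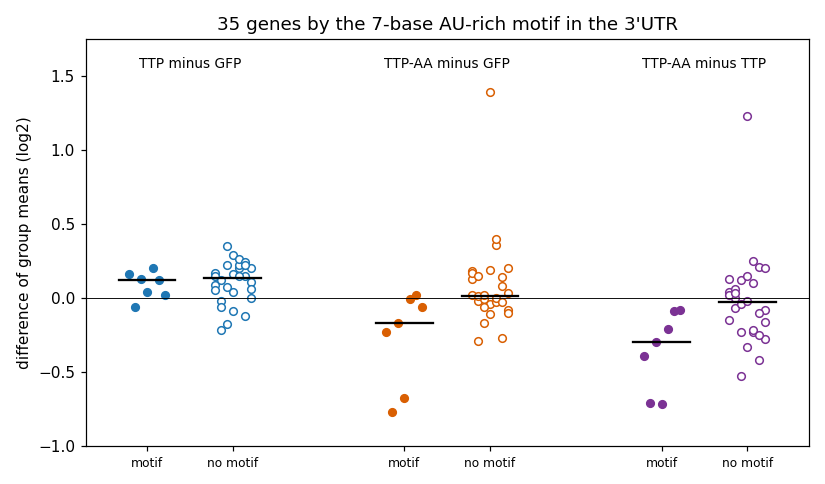
Difference of group means (log2, y axis) for the 7 members with TATTTAT in the 3'UTR (filled) and the 28 without it (open), in the 3 comparisons, with a line at each median. In TTP-AA minus TTP all filled points lie below 0 (median -0.30) and the open ones lie on both sides of it (median -0.03).

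Glycolytic genes are classic targets of hypoxia-inducible factor, whose core letters are ACGTG, and of Myc, which reads the E-box CACGTG. In RefSeq promoters of 300 bases (250 before to 50 after the start, GRCm38.p6), 34 of 35 members were matched. ACGTG on either strand was in 14 of them (41.2%), against 19.7% of 27025 promoters and 26.3% of 9227 promoters of genes with a mean of at least 10. CACGTG, which contains ACGTG and reads alike on both strands, was in 2 (5.88%), Pfkm and Ldha, against 7.24% and 10.4%. The promoters of Hk2 and Pfkm are shown since these genes had the most negative differences and both hold the letters, here as CACGT for the other strand. The Hk2 stretch lies at chr6:82774493-82774515, minus strand, and the Pfkm stretch, which has the whole E-box, at chr15:98092444-98092466, plus strand.
Hk2 promoter: gagcacatcCACGTcactgtccg
Pfkm promoter: taagtatgcCACGTgaagtaagt
Capitals mark CACGT. Ldha and Pgk1 hold the same letters and lay within 0.02 of 0 in TTP-AA minus GFP. Over the 14 carriers that difference ran from -0.77 in Hk2 to 0.36 in Pgam1, with Hk3 at -0.29 and Pdhb at -0.27. A further CACGT, not shown, lies at -226 from the start in Hk2 and at 17 in Pfkm.

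Neighbouring genes of the pathway came from 5 lists, with 84 of 93 entries in the table and 75 at a mean of at least 10. Their medians were 0.01, -0.11 and -0.12 in the 3 comparisons. By at least 0.3, 3 were higher (5.74% of all genes) and 12 lower (8.83%) in TTP minus GFP. In TTP-AA minus GFP 7 were higher (11.4%) and 18 lower (12.0%), and in TTP-AA minus TTP 11 were higher (15.8%) and 17 lower (15.5%). With each chromosome at its median, 3, 7 and 12 were higher and 9, 13 and 12 lower in the same order.

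Other isoenzymes of the same steps were the list furthest below 0 in TTP-AA minus TTP, with 9 of 19 lower by at least 0.3 (15.5% of all genes), 12 apart with TTP-AA lower (17.3% of all genes), and a median of -0.24. With each chromosome at its median, 6 were lower. Eno2, the neuronal enolase, was at 384, 512 and 412 in GFP, 395, 525 and 425 in TTP and 210, 280 and 226 in TTP-AA. Its differences from GFP and TTP in TTP-AA were -0.87 and -0.91, and those of Eno3, the muscle enolase, -0.52 and -0.62. Adpgk, an ADP-dependent glucokinase, had -0.34 and -0.40. H6pd, which runs the oxidative pentose steps in the endoplasmic reticulum, was the exception on the high side, with 0.50 and 0.40.

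Of 11 transport genes, Slc2a3, the high-affinity glucose carrier GLUT3, was lower than in GFP in both TTP forms, by 0.31 and 0.40, with libraries apart. Slc2a1, the carrier GLUT1, had differences of 0.16, -0.01 and -0.18. Slc16a3, the lactate exporter, had 0.39, 0.16 and -0.23 with overlap. Slc16a7, a monocarboxylate carrier at a mean of only 90.6, was 1.25 lower in TTP than in GFP.

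Of 11 genes of gluconeogenesis and side branches, all lay below 0 in TTP-AA minus TTP (53.6% of all genes) and 5 were lower by at least 0.3 (15.5% of all genes), or 3 with each chromosome at its median. Gfpt1, which opens the hexosamine branch, had differences of -0.19, -0.73 and -0.54, and TTP-AA was apart from both other groups.

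Of 18 regulators, 6 were lower by at least 0.3 (8.83% of all genes) and 0 higher (5.74%) in TTP minus GFP, 2 of them with groups apart. Arnt, Txnip and Crtc2 of these lie on chromosome 3, whose median was -0.19, and with each chromosome at its median 3 were lower. In TTP-AA minus GFP 3 were higher (11.4% of all genes) and 3 lower (12.0%), the latter 1 with each chromosome at its median, and in TTP-AA minus TTP 5 were higher (15.8%) and 0 lower (15.5%). Txnip, which curbs glucose uptake, had -0.38, -0.63 and -0.25, and its relative Arrdc4 0.09, 0.64 and 0.55. Hif1a had 0.19, 0.06 and -0.13, and Myc 0.18, 0.48 and 0.30, each with overlapping libraries. Reads of the human c-Myc used for immortalization may be counted in Myc where they match the mouse gene, and this was not tested.

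Other hypoxia-responsive genes lay on both sides of 0. Of 18, 4 were lower (8.83% of all genes) and 0 higher (5.74%) in TTP minus GFP. In TTP-AA minus GFP 6 were lower (12.0% of all genes) and 3 higher (11.4%), and in TTP-AA minus TTP 5 were higher (15.8%) and 2 lower (15.5%). Vegfa, the vascular growth factor, had -0.43, -0.62 and -0.20 with overlap, and P4ha2, a collagen prolyl hydroxylase, -0.27, 0.56 and 0.82.

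Zfp36 itself was at 1744, 1425 and 895 in GFP, 1796, 1463 and 923 in TTP and 2799, 2281 and 1439 in TTP-AA. Its differences were 0.04, 0.68 and 0.64 (counting SE 0.035, 0.030 and 0.030), with libraries overlapping in all comparisons. The group mean was thus highest in TTP-AA. TTP and GFP were nearly level, and the TTP label could not be checked by this gene. Macrophage markers were present in every group (10 of 10 in the table at a mean of at least 10), their summed scaled values running from 606354 to 837750 in GFP, 509916 to 700413 in TTP and 684545 to 938607 in TTP-AA, most of it Lyz2. Emr1, the gene of F4/80, had differences of -0.75, 0.67 and 1.42, and Fcgr1, an Fc receptor, of -1.20, -0.40 and 0.80, so the groups also differed in macrophage genes. The listed fibroblast, T cell, B cell, epithelial and erythroid markers were all under a mean of 10. Of the neutrophil and endothelial lists S100a8 (mean 174) and Kdr (21.4) were above it, with differences of 0.73 and 0.90 in TTP-AA minus TTP. The summed neutrophil list ran from 114 to 181 in GFP, 116 to 184 in TTP and 192 to 305 in TTP-AA, and the endothelial list from 28.8 to 34.7, from 28.0 to 33.7 and from 43.0 to 53.4. The part of these differences in the results was not tested, and in bulk RNA a change in the number of cells of a type and in RNA per cell cannot be told apart.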

How the data were processed

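RNA of 9 libraries (3 each of GFP, TTP and TTP-AA, grouped and numbered by sample titles) was analysed from files the authors deposited. Per the study's methods and processing notes, the authors aligned 50-base reads to GRCm38 with TopHat, allowing up to 2 placements per read, counted them per Ensembl gene (HTSeq) and fitted DESeq2 1.6.3 with library date and condition. The notes also name Trim Galore and TopHat2 2.0.12. Strand use and shrinkage of the fit are not given in the sources used here.

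The deposited per-library signal is on a count scale, with 25504 rows (10 repeated identifiers dropped) and a smallest value of 0.0464. It was checked before use and holds fitted means. The planned limma fit therefore could not be made. The deposited comparison tables hold a mean signal over the 9 libraries and columns of the authors' own comparisons (log2 fold changes, standard errors, test statistics, p-values and adjusted p-values). Those columns were not used. The mean scaled values of members were 0.899 to 1.007 times the authors' mean.

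Libraries were scaled by the median ratio to the geometric mean library (factors 0.608 to 2.84), with numpy 2.4.6 and pandas 2.3.3 under Python 3.11.15, and scipy 1.17.1 in a check on simulated data. Counting errors treat fitted counts as Poisson and cover counting error only. Whether the 3 libraries of a group came from separate cultures was taken from the labels, which call them biological replicates. Lengths, positions and 3'UTRs came from GENCODE M21 (transcript with the longest coding sequence), promoters from RefSeq. Alternatives were other scalings, size limits, filters, a pseudocount of 1, arithmetic means, chromosome medians and libraries left out.

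Values in every library are given for members with a difference of at least 0.3 in any comparison and for 1 leading isoenzyme, by level per length, of each group of steps. Pathway neighbours with such a difference could be named. Pdhx, Slc2a1, Hif1a and the marker genes were named outside that rule or after their values were seen. The members and all lists (5 of neighbours and those of cell type markers) were chosen with earlier results of these data known.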

Additional observations from a re-analysis of the deposited data

How the results depend on the processing

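No paired analysis was possible because each library value comes from a fitted model that already contains the replicate-number term and holds no scatter. For the same reason single values cannot show how well replicates agree, and leaving out 1 library unbalances that term.

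With a limit of 0.5 in place of 0.3, the members higher numbered 0 in TTP minus GFP and 1 in TTP-AA minus GFP, and those lower numbered 3 in TTP-AA minus TTP. With a limit of 1 the counts were 0 higher in TTP minus GFP, 1 higher and 0 lower in TTP-AA minus GFP, and 0 lower in TTP-AA minus TTP. A mean of at least 50 dropped Ldhb and left 0 higher in TTP-AA minus TTP. With each chromosome set to its median, 4 were lower in TTP-AA minus GFP, and Pgam1 stood at 0.27 there. Without members that overlap a gene on the other strand, a choice made after seeing the data, 1 was lower in TTP-AA minus GFP.

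Leaving out libraries gave 1 to 5 higher and 0 to 1 lower in TTP minus GFP, 2 to 3 higher and 2 to 4 lower in TTP-AA minus GFP, and 1 to 2 higher and 6 to 10 lower in TTP-AA minus TTP. The count higher in TTP minus GFP was 4 without GFP replicate 2, 5 without GFP replicate 3, 4 without TTP replicate 1 and 3 without TTP replicate 2, and without the last 1 was lower. In TTP-AA minus GFP 4 were lower without GFP replicate 1 or without TTP-AA replicate 2. In TTP-AA minus TTP 10 were lower without TTP replicate 1, and 2 were higher without TTP replicate 2, TTP-AA replicate 1 or TTP-AA replicate 3. The medians ran from 0.08 to 0.16, from -0.03 to 0.03 and from -0.11 to -0.05. Filters, and leaving out a whole replicate number, cannot move a single gene here by construction. Arithmetic group means also left each named value as it was, yet they are among the values counted next. Leaving out 1 library moves a group mean by less than the spread whatever the data, apart from a small change of scaling. The count that follows is therefore no test of stability. Of the 143 other values of named members, 142 moved by less than the spread over libraries, 1 moved further with its direction kept and 0 reversed, and 6 came under 0.3 (Pgam1 as above, Eno1 without TTP replicate 3, TTP-AA replicate 1 or TTP-AA replicate 2, Dld without TTP replicate 3 and Taldo1 without TTP-AA replicate 2). The neighbour counts by chromosome median were added after seeing the data.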
